A study of Mus musculus with 6 samples.

Results

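The report concerns the 7 mouse genes that encode the 2 families of cyclin-dependent kinase (CDK) inhibitors: Cdkn2a, Cdkn2b, Cdkn2c and Cdkn2d of the INK4 family and Cdkn1a, Cdkn1b and Cdkn1c of the CIP/KIP family. They were taken by symbol from tables of 27502 genes, and each had 1 row. RNA was sequenced from cultured vascular smooth muscle cells of the mouse aorta, cells that contract the artery wall. In 3 samples the cells had received small interfering RNA against Ezh2 (siEzh2), and 3 samples were their controls, with 48 hours of treatment as the time given. The sources used here do not give the treatment of the control cells, the strain or age of the mice, or whether a group's samples are separate cultures. P-values therefore speak only of the spread among these libraries, and that spread may be technical. Levels are FPKM, fragments scaled by exon length and by library size, a unit that allows genes of different length to be compared.

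INK4 proteins bind CDK4 and CDK6 and keep D-type cyclins from activating them, while CIP/KIP proteins bind a wider range of cyclin and CDK complexes, including those of CDK2. Both families slow the passage of cells into S phase by keeping the retinoblastoma protein (RB) and its relatives bound to E2F factors. The product of Ezh2 is the catalytic subunit of Polycomb repressive complex 2 and deposits the repressive mark H3K27me3. The Cdkn2a and Cdkn2b genes, neighbours on 1 chromosome, are known targets of this complex, and in many cell types they are switched on as cultures age. Cdkn1a is a classical target of p53.

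Ezh2 had 1.20, 1.09 and 1.05 FPKM in siEzh2 samples and 3.41, 3.59 and 3.88 FPKM in control samples, so the knockdown groups did not overlap. Libraries held between 16080005 and 18753124 reads, recovered from steps in the FPKM values. Of the smooth muscle markers, Acta2 (smooth muscle actin) had 537 ± 17.8 FPKM in siEzh2 and 699 ± 14.8 FPKM in control samples (SD, n = 3 each), but Myh11 (smooth muscle myosin) had only 1.12 ± 0.181 and 1.83 ± 0.149 FPKM and Tagln 0.228 ± 0.0744 and 0.253 ± 0.0865 FPKM, siEzh2 before control (SD, n = 3 each; 67.9% of the exon bases of Tagln lie in genes of the opposite strand). The 9 smooth muscle markers summed to 608 to 647 FPKM in siEzh2 samples and 874 to 899 FPKM in controls. The 6 fibroblast markers summed to 64.7 to 68.0 FPKM in siEzh2 samples and 72.8 to 76.7 FPKM in controls, the 6 macrophage markers to 10.3 to 11.95 and 14.8 to 17.4 FPKM, and the 6 endothelial markers to 3.79 to 4.04 and 2.37 to 2.58 FPKM. Of 7 smooth muscle markers tested 6 were lower, 0 higher and 1 did not pass, beside 22.7% lower over all tested genes. The fibroblast and macrophage sums hold genes that went opposite ways. Of the fibroblast markers, Pdgfra was higher, at 37.5 ± 1.10 FPKM in siEzh2 and 28.6 ± 0.768 FPKM in control samples (SD, n = 3 each), while Dpt, Col14a1 and Lum were lower. Of the macrophage markers Csf1r and Lyz2 were lower, and Cd68 was higher in a call that stood in 4 of 13 alternatives. Of the exon bases of Csf1r 15.1% lie opposite Hmgxb3. Only 1 of the 6 endothelial markers, Kdr, reached a mean of 1 FPKM in either group. It was higher by 0.27 on the log2 scale (adjusted p = 0.00337). None of these markers was at 0 in all 6 samples, although Ptprc (CD45 of leukocytes) had only 4 reads over the siEzh2 samples and 4 over the controls. The part of these differences in the results below was not tested, and in bulk samples fewer cells of a type cannot be told apart from less RNA per cell.

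The CDK inhibitors moved in both directions after Ezh2 knockdown, and most were lower. Among the 7 genes, which all passed the filter of a mean of at least 1 FPKM in both groups, 5 were lower (Cdkn1b, Cdkn1c, Cdkn2a, Cdkn2b and Cdkn2d), Cdkn1a was higher and Cdkn2c did not pass the test (limma across 11869 genes, Benjamini-Hochberg adjusted p under 0.05). Over all tested genes 22.7% were called lower and 24.1% higher, 46.9% in all. The median log2 fold change, siEzh2 minus control on log2(FPKM + 1), was −0.28 for the 7 inhibitors and 0.01 for all tested genes. By family, 3 of 4 INK4 genes and 2 of 3 CIP/KIP genes were lower. In 6 of the 7 genes every siEzh2 sample lay on one side of every control sample, as it did in 58.1% of all tested genes.

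**Figure D1:**
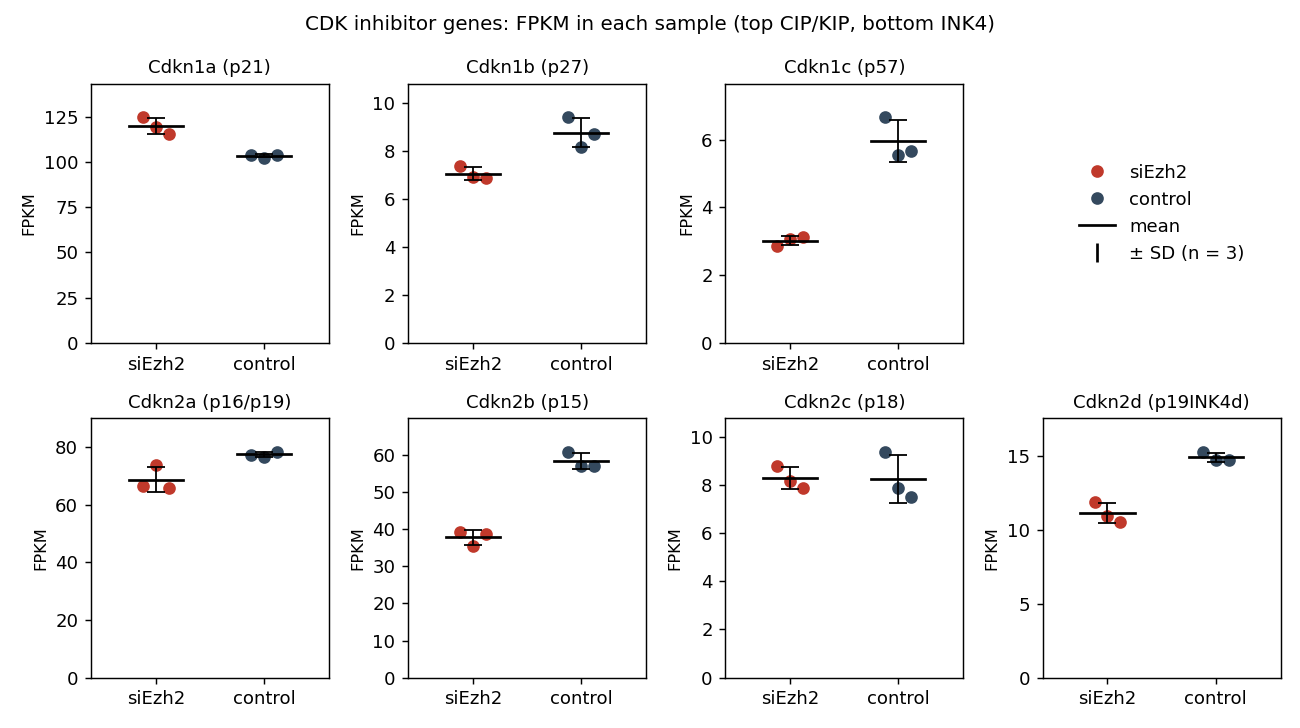
FPKM (vertical axes, each from 0) of the 7 CDK inhibitor genes in the 3 siEzh2 and 3 control samples, with 1 point per sample, the mean as a bar and the SD as whiskers. The siEzh2 points lie above the control points for Cdkn1a and below them for Cdkn1b, Cdkn1c, Cdkn2a, Cdkn2b and Cdkn2d, and the groups overlap for Cdkn2c.

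Among the INK4 genes, Cdkn2b was lower by the largest amount. Cdkn2b (ENSMUSG00000073802, minus strand of chromosome 4 from 89306299 to 89311039, mm10) encodes p15, a CDK4 and CDK6 inhibitor that TGF-beta induces in epithelial cells. It had 39.2, 35.4 and 38.8 FPKM in siEzh2 samples and 60.7, 57.1 and 57.04 FPKM in control samples. The groups stood far apart relative to their spread, at 37.8 ± 2.09 FPKM in siEzh2 and 58.3 ± 2.11 FPKM in control samples (SD, n = 3 each). The fall was 1.54 times, and the log2 fold change −0.61 (SE 0.0526, 95% interval −0.74 to −0.48, adjusted p = 0.000353). It rested on 2681 reads over the siEzh2 samples and 4504 over the controls, and ranked 216 by size among the 2695 genes called lower.

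Cdkn2a, the neighbour of Cdkn2b, was lower by far less. Cdkn2a (ENSMUSG00000044303, chromosome 4 from 89274471 to 89294653 on the minus strand) encodes p16, an INK4 inhibitor, and from another reading frame p19ARF, which stabilises p53 by binding MDM2. It had 66.5, 73.8 and 66.0 FPKM in siEzh2 samples and 77.4, 76.7 and 78.3 FPKM in control samples. Samples 1 and 3 of siEzh2 were close to each other and sample 2 lay nearer to the controls, without overlap. The means were 68.7 ± 4.36 FPKM in siEzh2 and 77.5 ± 0.767 FPKM in control samples (SD, n = 3 each), 1.13 times lower. The log2 fold change was −0.17 (SE 0.0511, 95% interval −0.30 to −0.05, adjusted p = 0.0339). The call was lost when siEzh2 sample 1 or 3 or any 1 control sample was left out (adjusted p = 0.0742 to 0.0934), with no filter on low values (0.0676) and with the replicate number as a block (0.0640). Without siEzh2 sample 2 the log2 fold change was −0.22 (adjusted p = 0.00936).

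One value of Cdkn2a covers transcripts from separate start sites, so p16 and p19ARF transcripts cannot be told apart in these tables. GENCODE lists 2 transcripts of Cdkn2a and 1 of Cdkn2b. The promoters from which the p16, p19ARF and p15 transcripts start are shown because these are the start sites whose joint output the Cdkn2a and Cdkn2b values measure. Each line gives the 250 bases before the start on the minus strand, 5′ to 3′, from RefSeq on GRCm38.p6 (the build of mm10), with matches to GGGCGG, the GC box bound by Sp1, in capitals.
Cdkn2a, p16 start, chr4:89282193-89282442: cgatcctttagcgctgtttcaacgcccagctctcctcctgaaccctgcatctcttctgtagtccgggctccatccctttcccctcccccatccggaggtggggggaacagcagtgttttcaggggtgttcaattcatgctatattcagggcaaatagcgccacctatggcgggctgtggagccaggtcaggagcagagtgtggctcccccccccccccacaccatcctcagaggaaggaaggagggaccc
Cdkn2a, p19ARF start, chr4:89294620-89294869: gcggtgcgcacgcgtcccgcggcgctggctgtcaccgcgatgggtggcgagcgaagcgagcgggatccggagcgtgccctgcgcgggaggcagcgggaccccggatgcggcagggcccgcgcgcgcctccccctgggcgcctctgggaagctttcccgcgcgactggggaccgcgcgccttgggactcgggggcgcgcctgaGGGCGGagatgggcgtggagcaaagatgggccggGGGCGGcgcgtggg
Cdkn2b, p15 start, chr4:89311033-89311282: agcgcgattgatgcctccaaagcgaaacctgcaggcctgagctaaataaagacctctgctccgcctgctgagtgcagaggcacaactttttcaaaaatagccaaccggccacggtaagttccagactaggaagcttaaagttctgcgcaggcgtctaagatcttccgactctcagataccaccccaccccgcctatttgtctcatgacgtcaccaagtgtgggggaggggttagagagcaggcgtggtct
The p19ARF promoter is the one richest in the dinucleotide CG, with 45 in the 300 bases from 250 before the start to 50 after it, more than in 98.1% of 32851 RefSeq promoters. The p15 promoter has 18 (above 70.3% of promoters) and the p16 promoter 12 (above 60.4%), where the median promoter has 7. On both strands of the full 300 bases GGGCGG occurs 3 times in the p19ARF promoter and 1 time each in the p16 and p15 promoters, and 1 of the 3 and both of the others lie after the start, beyond the printed bases. It occurs in 35.7% of all promoters.

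Cdkn2d was also lower. It (ENSMUSG00000096472, chromosome 9 from 21288410 to 21291407 on the minus strand) encodes p19INK4d, an INK4 protein unrelated to p19ARF. Its levels were 11.9, 10.96 and 10.55 FPKM in siEzh2 samples and 15.3, 14.7 and 14.7 FPKM in control samples. All 3 siEzh2 samples lay below the lowest control. Means were 11.1 ± 0.686 FPKM in siEzh2 and 14.9 ± 0.308 FPKM in control samples (SD, n = 3 each), 1.34 times lower (log2 fold change −0.39, SE 0.0495, 95% interval −0.51 to −0.27, adjusted p = 0.0014), from 893 reads over the siEzh2 samples and 1305 over the controls.

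Cdkn2c, which encodes p18, showed no difference beyond the spread between samples. It (ENSMUSG00000028551, chromosome 4 from 109660876 to 109667189 on the minus strand) had 8.79, 8.18 and 7.87 FPKM in siEzh2 samples and 9.36, 7.85 and 7.499 FPKM in control samples. The siEzh2 values fell inside the range of the controls. The log2 fold change was 0.01 (SE 0.0826, adjusted p = 0.925), and its 95% interval of −0.19 to 0.21 would hold a change of the size seen for Cdkn2a in either direction. The interval does not reach the log2 fold change of Cdkn2b or Cdkn2d.

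Cdkn2b transcript per Cdkn2a transcript (ratio of FPKM within a sample, which does not depend on the scaling between samples) was 0.590, 0.480 and 0.588 in siEzh2 samples and 0.784, 0.744 and 0.729 in control samples. The ratio of Cdkn2b to Cdkn2c was 4.46, 4.33 and 4.93 in siEzh2 samples and 6.49, 7.27 and 7.61 in control samples. Neither ratio overlapped between groups. These ratios, and that of Cdkn1a to Cdkn1b given below, were chosen after their values were seen. An exact permutation test gave p = 0.1 for each of them. That is the smallest p that 3 samples against 3 allow, so the test cannot decide. The transcripts of Cdkn2a and Cdkn2b share no identical run longer than 23 bases, as do those of Cdkn1a and Cdkn1b, and no other pair of the 7 genes shares more than 16.

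Cdkn1a was the exception to the falls. It (ENSMUSG00000023067, chromosome 17 from 29090976 to 29100727 on the plus strand) encodes p21, which inhibits CDK2 complexes and binds PCNA. Its levels were 124, 119 and 115 FPKM in siEzh2 samples and 104, 102 and 104 FPKM in control samples. Every siEzh2 sample lay above every control. The means were 120 ± 4.64 FPKM in siEzh2 and 103 ± 0.832 FPKM in control samples (SD, n = 3 each), 1.16 times higher. The log2 fold change was 0.21 (SE 0.0397, 95% interval 0.12 to 0.31, adjusted p = 0.00638). This was a small rise beside those elsewhere in the tables: Cdkn1a ranked 2104 among the 2866 genes called higher, whereas its level was above that of 96.7% of tested genes. On the opposite strand, exons of AC167363.2 cover 7.68% of the exon bases of Cdkn1a. The sources used here do not say whether reads were counted by strand.

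Cdkn1a has 2 RefSeq start sites in the promoter table, and the upstream one is shown because the p53 consensus lies there. Capitals mark a 20-base match to the consensus made of 2 half-sites with no spacer, with at most 1 mismatch outside the core bases. This motif was added to the search after the sequence had been read.
Cdkn1a, upstream start, chr17:29090729-29090978: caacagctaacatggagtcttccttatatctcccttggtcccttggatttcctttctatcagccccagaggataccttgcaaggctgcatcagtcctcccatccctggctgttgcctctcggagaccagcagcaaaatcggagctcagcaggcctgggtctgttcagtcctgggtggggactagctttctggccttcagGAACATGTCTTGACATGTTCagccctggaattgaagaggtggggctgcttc
The match begins at position −51 relative to the start at 29090979, on the plus strand, and 0.0548% of all 32851 promoters hold one by this rule (18 promoters). No other promoter among the 9 found for 6 of the members holds it. The downstream start of Cdkn1a, at 29093769, has 23 CG in its 300 bases against 2 upstream, and 2 matches to GGGCGG. The other motifs searched on both strands were TTTGGCGC and TTTCGCGC (E2F), TTGTTTAC (forkhead factors) and CACGTG (E-box). The first 3 have no match in these 9 windows (0.514%, 0.323% and 1.23% of all promoters), and CACGTG has a single match, in a promoter of Cdkn2c (7.15% of all promoters). A match is a string of letters and not a measured binding site.

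Cdkn1c had the largest relative fall of the family. It (ENSMUSG00000037664, chromosome 7 from 143458339 to 143461050 on the minus strand) encodes p57 and is imprinted, with expression from the maternal allele. Its levels were 2.87, 3.07 and 3.13 FPKM in siEzh2 samples and 6.66, 5.54 and 5.68 FPKM in control samples. The groups were far apart, at 3.02 ± 0.138 FPKM in siEzh2 and 5.96 ± 0.610 FPKM in control samples (SD, n = 3 each), 1.97 times lower. The log2 fold change was −0.79 (SE 0.0684, 95% interval −0.95 to −0.62, adjusted p = 0.000368), and it was −0.95 with a pseudocount of 0.1 and −0.97 by limma-voom on recovered reads. Cdkn1c ranked 98 among the genes called lower. It was also the lowest member, with 315 reads over the siEzh2 samples and 675 over the controls. Exons of Gm44732 on the opposite strand cover 30.7% of the exon bases of Cdkn1c, and no gene of that name had values here.

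Genes listed around Cdkn1c on chromosome 7 went both ways. Of 5 tested among the 11 listed, 2 were higher, 2 lower and 1 did not pass, beside 24.1% higher and 22.7% lower over all tested genes. Slc22a18, a neighbouring transporter gene that is also expressed from the maternal allele, had 3.996 ± 0.249 FPKM in siEzh2 and 7.55 ± 1.74 FPKM in control samples (SD, n = 3 each), a log2 fold change of −0.75 (adjusted p = 0.00726). Cd81, a tetraspanin, fell by 0.16 (adjusted p = 0.0133), a call lost with quantile normalization. Tssc4 rose by 0.46 (adjusted p = 0.0006) and the imprinted noncoding RNA H19 by 0.52 (adjusted p = 0.00415). H19, from 142575529 to 142578143, lies farther from Cdkn1c than the other 4 tested genes. Its level was low, at 2.11 ± 0.294 FPKM in siEzh2 and 1.17 ± 0.162 FPKM in control samples (SD, n = 3 each). Exons of Trpm5 on the opposite strand cover 11.9% of the exon bases of Tssc4. Nap1l4, a histone chaperone, had a log2 fold change of −0.10 and did not pass (adjusted p = 0.0752). Kcnq1ot1, the noncoding RNA that silences the paternal copies of the imprinted domain of Cdkn1c, was below the filter. It had 0.0972 ± 0.0172 FPKM in siEzh2 and 0.0720 ± 0.00777 FPKM in control samples (SD, n = 3 each). Its exons span 93092 bases, and these values rest on 460 reads over the siEzh2 samples and 373 over the controls. Beside the INK4 pair, Mtap was the 1 tested neighbour of 3 listed, at a log2 fold change of −0.06 (adjusted p = 0.26).

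Cdkn1b was modestly lower. It (ENSMUSG00000003031, chromosome 6 from 134920401 to 134925513 on the plus strand) encodes p27, an inhibitor of cyclin E and CDK2 that holds quiescent cells in G1. Its levels were 7.39, 6.93 and 6.89 FPKM in siEzh2 samples and 9.42, 8.19 and 8.72 FPKM in control samples. The highest siEzh2 sample was below the lowest control. Means were 7.07 ± 0.277 FPKM in siEzh2 and 8.78 ± 0.614 FPKM in control samples (SD, n = 3 each), 1.24 times lower (log2 fold change −0.28, SE 0.0561, 95% interval −0.41 to −0.14, adjusted p = 0.0087). The 2 better known CIP/KIP genes therefore moved in opposite directions: Cdkn1a per Cdkn1b was 16.8, 17.2 and 16.7 in siEzh2 samples and 11.02, 12.5 and 11.9 in control samples.

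**Figure D2:**
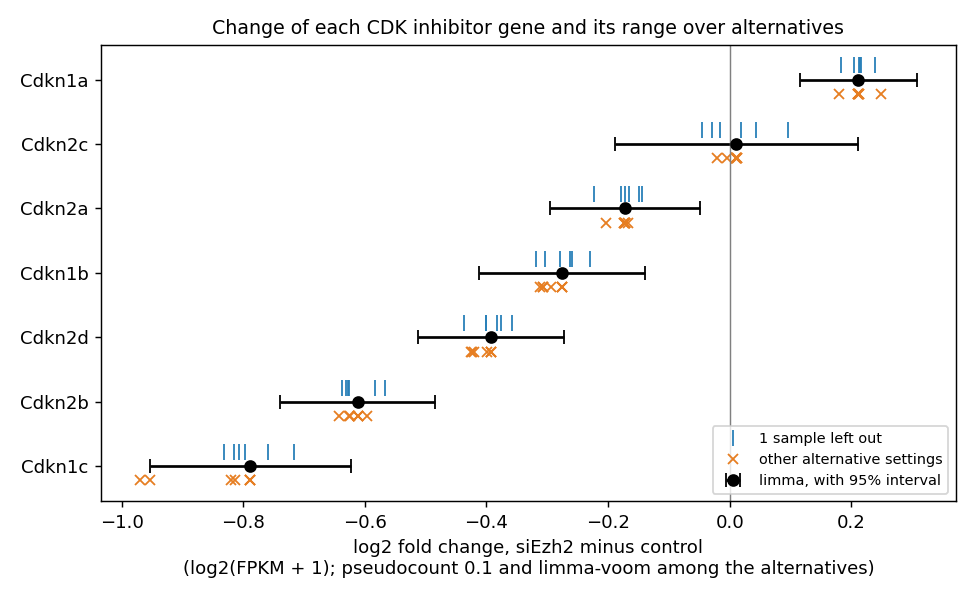
Log2 fold change, siEzh2 minus control (horizontal axis), for the 7 genes ordered by size, with the limma estimate and its 95% interval as black points and bars, 1 blue tick for each sample left out and orange crosses for the other alternative settings. Cdkn1a stays to the right of 0 and 5 genes stay to the left, while Cdkn2c lies on both sides.

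Summed over the 7 genes, the family had 261, 258 and 248 FPKM in siEzh2 samples and 283, 272 and 276 FPKM in control samples. The sum of the INK4 genes was lower and that of the CIP/KIP genes higher: 126 ± 2.58 FPKM in siEzh2 and 159 ± 3.41 FPKM in control samples for INK4, and 130 ± 4.76 FPKM in siEzh2 and 118 ± 1.95 FPKM in control samples for CIP/KIP (SD, n = 3 each). Within CIP/KIP only Cdkn1a was higher, while Cdkn1b and Cdkn1c were lower. Cdkn1a, the most abundant member in both groups, made up 46.8% ± 0.760 of the sum in siEzh2 and 37.3% ± 0.488 in control samples. Cdkn2b made up 14.8% ± 0.962 of it in siEzh2 and 21.1% ± 0.398 in control samples (SD, n = 3 each). Cdkn2a held 26.9% ± 1.604 in siEzh2 and 28.0% ± 0.527 in control samples, shares that overlap. These sums and shares are descriptions of genes chosen with earlier results known and carry no test.

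**Figure D3:**
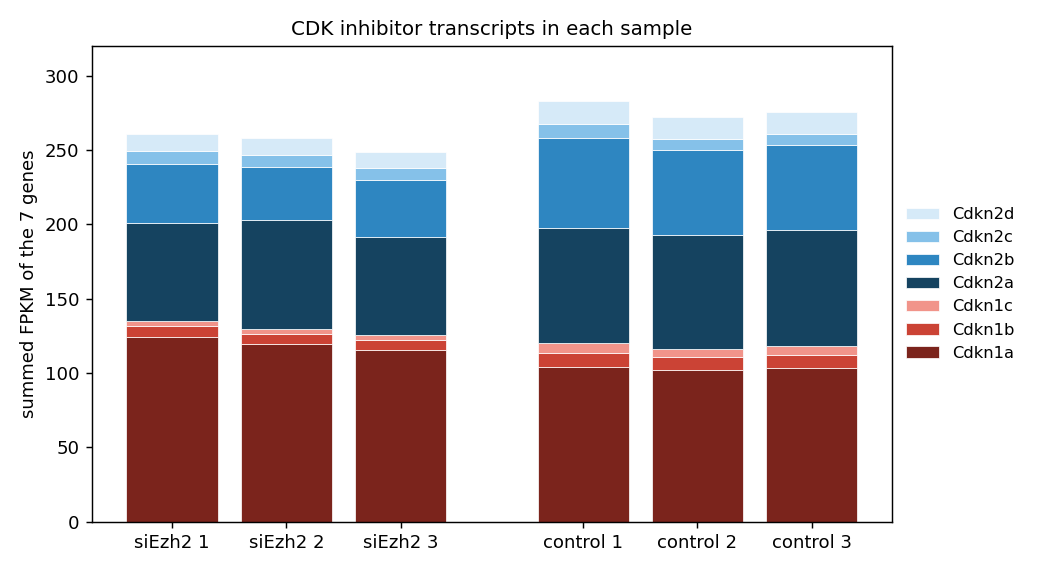
Summed FPKM of the 7 CDK inhibitor genes (vertical axis, from 0) in each of the 3 siEzh2 and 3 control samples, divided by gene, with CIP/KIP genes in red and INK4 genes in blue. The bars reach 248 to 261 FPKM in siEzh2 and 272 to 283 FPKM in control samples, with a larger Cdkn1a part and a smaller Cdkn2b part in siEzh2.

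The order of levels in siEzh2 samples was Cdkn1a, Cdkn2a, Cdkn2b, Cdkn2d, Cdkn2c, Cdkn1b and Cdkn1c, with no overlap between neighbours over the 3 samples. In control samples the order was the same except that Cdkn1b (8.19 to 9.42 FPKM) stood before Cdkn2c (7.499 to 9.36 FPKM), and these 2 overlapped. Levels spanned from 3.02 FPKM for Cdkn1c to 120 FPKM for Cdkn1a in siEzh2 samples, and from 5.96 to 103 FPKM for the same genes in control samples. Cdkn2a and Cdkn2b were abundant, above 94.6% and 91.3% of tested genes by mean level over all 6 samples.

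The kinases and cyclins that the inhibitors bind also changed in both directions. Of 12 tested, 3 were higher, 5 lower and 4 did not pass, with a median log2 fold change of −0.0086. Over all tested genes the shares were 24.1% higher and 22.7% lower. All 3 D-type cyclins, the partners of CDK4 and CDK6, were lower: Ccnd3 had 29.4 ± 0.372 FPKM in siEzh2 and 41.7 ± 0.676 FPKM in control samples, Ccnd2 82.1 ± 0.582 and 101 ± 1.45 FPKM, and Ccnd1 162 ± 6.94 and 184 ± 2.77 FPKM (SD, n = 3 each; adjusted p = 0.000151, 0.000712 and 0.0135). The call of Ccnd1 was lost with quantile normalization, and 23.4% of its exon bases lie opposite another gene. Cdk6 fell by 0.25 (adjusted p = 0.00322), whereas Cdk4 had 68.9 ± 1.28 FPKM in siEzh2 and 67.9 ± 0.731 FPKM in control samples (SD, n = 3 each, adjusted p = 0.655). Cdk2 rose by 0.14 (adjusted p = 0.0238), a call that stood in 8 of 13 alternatives. The 2 E-type cyclins, which activate CDK2, went opposite ways. Ccne1 had 8.44 ± 0.736 FPKM in siEzh2 and 13.3 ± 0.514 FPKM in control samples (adjusted p = 0.000791), and Ccne2 4.23 ± 0.236 and 2.96 ± 0.367 FPKM (SD, n = 3 each, adjusted p = 0.00582), with 17.4% of the exon bases of Ccne2 opposite Ints8. Ccna2, the cyclin of S phase, was higher by 0.28 on the log2 scale (adjusted p = 0.0104). Of the exon bases of Ccna2 12.5% lie opposite Exosc9, and of those of Cdk4 19.7% lie opposite Tspan31.

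Downstream of the kinases, the RB and E2F list had 4 higher, 3 lower and 5 that did not pass among 12 tested. Its median log2 fold change was 0.02. The counts in this paragraph stand beside 24.1% higher and 22.7% lower over all tested genes. E2f7 and E2f8, the atypical repressor E2Fs, rose by 0.49 and 0.34 (adjusted p = 0.00026 and 0.00198), and so did Tfdp1, the dimer partner of E2F proteins, by 0.33 (adjusted p = 0.00229). Lower were E2f5, which acts with the RB relatives (−0.57, adjusted p = 0.00161), E2f6, a repressor linked to Polycomb complexes (−0.34, adjusted p = 0.00132), and the RB relative Rbl2 (−0.26, adjusted p = 0.00345, with 20.97% of its exon bases opposite other genes). Rb1 itself had 4.63 ± 0.414 FPKM in siEzh2 and 4.83 ± 0.350 FPKM in control samples (SD, n = 3 each, adjusted p = 0.584). Of the exon bases of Rb1 14.9%, and of those of E2f8 11.2%, lie opposite other genes. Of 14 proliferation markers 12 were higher, none was lower by limma (0 also at an unadjusted p under 0.05, and 0 by limma-voom on recovered reads), and the median log2 fold change was 0.26. Over the 13 alternatives 9 to 12 of these markers were called higher. Among them Mcm3 of the replicative helicase rose by 0.46 (adjusted p = 0.000518), Pcna, the sliding clamp that p21 binds, by 0.39 (adjusted p = 0.00168), and Mki67 by 0.28 (adjusted p = 0.00622). Mcm2, Mcm6 and Mcm7, also helicase subunits, and the mitotic kinase Aurkb rose by 0.33, 0.29, 0.24 and 0.41 (adjusted p = 0.000914, 0.00182, 0.00527 and 0.00148). Cdk1 and Plk1 did not pass (log2 fold changes −0.04 and −0.06).

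**Figure D4:**
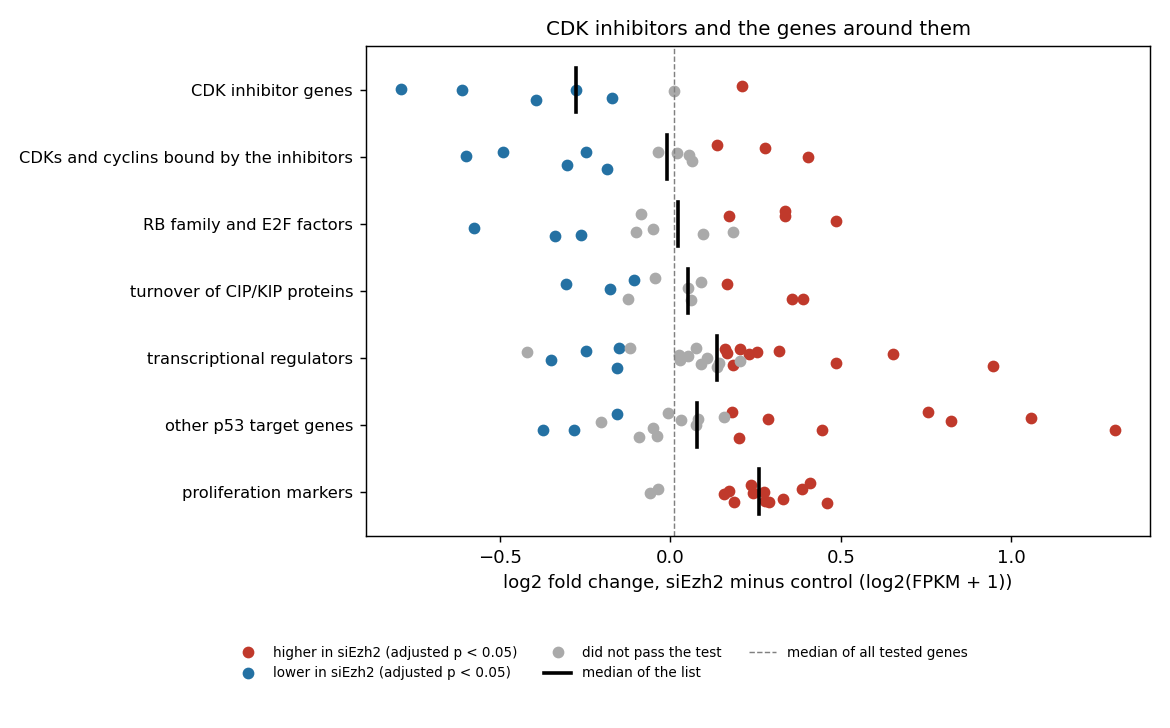
Log2 fold change, siEzh2 minus control (horizontal axis), of each tested gene in the CDK inhibitor family and 6 lists of related genes, with 1 point per gene coloured by its call, the list's median as a black line and the median of all tested genes (0.01) as a dashed line. Most inhibitors lie left of 0 (median −0.28) and most proliferation markers right of it (median 0.26).

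Among 25 tested genes that act on the transcription of the inhibitors, 10 were higher, 4 lower and 11 did not pass, with a median log2 fold change of 0.14. This stands beside 24.1% higher and 22.7% lower over all tested genes, and without siEzh2 sample 2 only 5 were higher and 3 lower. Myc, which represses Cdkn2b and Cdkn1a together with the Miz-1 protein, had 34.3 ± 0.574 FPKM in siEzh2 and 17.3 ± 0.222 FPKM in control samples (SD, n = 3 each), a log2 difference of 0.95 (adjusted p = 3.57e-05). Trp53, which encodes p53, had 37.4 ± 0.643 FPKM in siEzh2 and 26.4 ± 1.23 FPKM in control samples (adjusted p = 0.000411), and Mdm2, its inhibitor and target, 75.3 ± 1.5 and 47.6 ± 2.07 FPKM (SD, n = 3 each, adjusted p = 0.000151). Smad3, a transducer of TGF-beta, rose by 0.32 (adjusted p = 0.00434), and Ets2, an activator of p16 transcription, by 0.25 (adjusted p = 0.00712), while Ets1, which also activates p16 transcription, fell by 0.15 (adjusted p = 0.00968). Also lower were Id3 and Id2, which block basic helix-loop-helix factors (−0.35 and −0.25, adjusted p = 0.000443 and 0.00329). Bmi1, the subunit of Polycomb complex 1 best known for silencing the INK4 locus, had 13.3 ± 0.477 FPKM in siEzh2 and 12.6 ± 0.444 FPKM in control samples, and its partner Rnf2 8.47 ± 0.690 and 8.12 ± 0.551 FPKM (SD, n = 3 each, adjusted p = 0.205 and 0.572).

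Other p53 targets shared the direction of Cdkn1a in part. Of 20 tested 8 were higher, 3 lower and 9 did not pass, with a median log2 fold change of 0.08. Among all tested genes 24.1% were higher and 22.7% lower. By limma-voom on recovered reads 5 were lower, and with a pseudocount of 0.1 the number stayed at 3. The stress cytokine Gdf15 had 15.8 ± 1.20 FPKM in siEzh2 and 5.82 ± 0.492 FPKM in control samples, Ei24 29.8 ± 1.47 and 13.8 ± 0.428 FPKM, and the kinase Plk2 27.7 ± 0.869 and 16.01 ± 0.562 FPKM (SD, n = 3 each; adjusted p = 9.86e-05, 5.03e-05 and 9.32e-05). Pmaip1, which encodes the death-promoting NOXA, and the nuclease gene Aen rose by 0.82 and 0.29 (adjusted p = 0.000372 and 0.00108). Trp53inp1 and the death receptor Fas were lower (−0.37 and −0.28, adjusted p = 0.000513 and 0.0117). Ccng1, Bax and Eda2r, also targets of p53, had log2 fold changes of 0.07, −0.05 and −0.04 and did not pass.

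Genes that act on the stability of CIP/KIP proteins gave 3 higher and 3 lower of 11 tested (median 0.05). Both counts are near the shares over all tested genes, 24.1% higher and 22.7% lower. Dtl, the adaptor that directs p21 to degradation in S phase, had 1.34 ± 0.0807 FPKM in siEzh2 and 0.786 ± 0.0171 FPKM in control samples (adjusted p = 0.000571), passing the filter through the siEzh2 group. Cks1b, the cofactor for degradation of p27, had 64.6 ± 5.88 FPKM in siEzh2 and 50.1 ± 0.828 FPKM in control samples (SD, n = 3 each, adjusted p = 0.00656). Skp2, which recognises p27, was below the filter, with 0.506 ± 0.192 FPKM in siEzh2 and 0.287 ± 0.0443 FPKM in control samples (SD, n = 3 each). Rbx1 and Cul4a, core parts of the ligases, fell by 0.31 and 0.18 (adjusted p = 0.00139 and 0.00702), and Ddb1, which links Dtl to Cul4a, rose by 0.16 (adjusted p = 0.00755). Rnf123, a ligase subunit that acts on p27, was lower by a log2 fold change of −0.11 (adjusted p = 0.0424), a call that stood in 4 of 13 alternatives. Protein levels were not measured.

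For each member the 3 genes with the closest pattern over the 6 samples were found by Pearson's r of log2(FPKM + 1), among tested genes whose mean reached 5 FPKM. The samples fall into 2 groups, so a high r mostly reflects the difference between them. For Cdkn1a these were Gga2, Btg2 and Spc25 (r = 0.9982 to 0.9990), of which Btg2 is also in the list of p53 targets. The closest to Cdkn2b were Slit3, Tmod3 and Dnajb2 (r = 0.9980 to 0.9983), to Cdkn1c Tln2, Cd2bp2 and Tmem9b (r = 0.9987 to 0.9989) and to Cdkn2d Selenos, Oaz2 and Cap1 (r = 0.9978 to 0.9991). Cdkn2a had Asb8, Smim7 and Dvl1 (r = 0.992 to 0.996) and Cdkn1b Gria4, Fuca1 and Hdac5 (r = 0.9881 to 0.9898). Cdkn2c, which did not differ beyond its spread, had lower values, with Armc5, Gm9892 and Gm11808 (r = 0.931 to 0.978). No member was among the 3 closest genes of another. That absence says little, as Cdkn1c had a mean under 5 FPKM and could not be listed. For Cdkn1a, Cdkn1c, Cdkn2d and Cdkn2b, 28, 36, 53 and 89 genes had r above 0.99, so the closest 3 were nearly tied with others.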

How the data were processed

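Each of the 6 samples had a table of values per gene, which the authors deposited in FPKM, per the file headers. Libraries were made with a stranded TruSeq mRNA kit, per the labels' protocols. The submitters' processing notes name Trimmomatic, HISAT2, Cufflinks, HTSeq and mm10, and no source used here gives their roles or versions. The fit was limma (3.58.1, R 4.3.3) on log2(FPKM + 1) with no covariates, over the 11869 genes whose mean reached 1 FPKM in either group, with Benjamini-Hochberg adjustment over all of them. This scale understates fold changes of low genes. Reads were recovered with GENCODE M21 exon lengths: 98.4% to 98.5% of values under 1000 reads were whole within 0.02. Annotation matched 27434 of 27502 IDs. On recovered reads, chi-square per degree of freedom between samples of a group was 2.14 to 3.29, so none was taken for a copy. Alternatives were quantile normalization, median scaling, no filter, a pseudocount of 0.1, trend and robust variance, limma-voom on recovered reads, a block for the replicate number, and leaving out each sample. The fit was tested on simulated data. Members and lists were chosen with earlier results of these data known. The rule for named genes took all members, Ezh2, the 3 genes most like each member and, of each list, up to 6 called members or members with the smallest p. Ccnd1, Cdk2, Cdk4, Rb1, Mki67, Cdk1, Plk1, Ets1, Ets2, Bmi1, Rnf2, Fas, Ccng1, Bax, Eda2r, Skp2 and Kcnq1ot1, and the markers printed, were chosen after their values were seen. Python 3.11.15 with pandas 2.3.3 did the rest.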

Additional observations from a re-analysis of the deposited data

How the results depend on the processing

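The log2 fold changes of Cdkn1a, Cdkn1b, Cdkn1c, Cdkn2b and Cdkn2d kept their direction and passed the threshold under all 13 alternatives, with adjusted p of at most 0.0256, 0.0321, 0.00477, 0.00304 and 0.00742. Cdkn2a kept its direction but lost its call with no filter (−0.17) and with the replicate number as a block (−0.17), and over the fits that each leave out 1 sample its log2 fold change ranged from −0.22 to −0.14 (adjusted p = 0.00936 to 0.0934). Fewer samples entered the fits with 1 left out, and more genes the fit with no filter. The cause of the loss under the block was not tested. Cdkn2c, which was never called, changed sign with quantile normalization (−0.0041) and median scaling (−0.020), and ranged from −0.046 to 0.096 with 1 sample left out. Deviations from the group means correlated weakly between same-numbered samples (0.0243, 0.0695 and 0.0405). Between differently numbered samples the correlations were lower, from −0.0623 to 0.0218. Values this small cannot settle whether samples with the same number were paired. The block gave 2564 higher and 2385 lower genes, against 2866 and 2695 without it, and changed the call of no member but Cdkn2a. Over all alternatives 2279 to 3194 genes were higher and 2150 to 3146 lower. Of 208 counts of list genes under alternatives 205 were within 1.5 times the reported count. This rule takes 2 and 3 as alike and includes counts that were 0 throughout, so it says little about short lists. Standard errors of the log2 fold changes ran from 0.0397 for Cdkn1a to 0.0826 for Cdkn2c, with 3 samples a group.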
